A study of Homo sapiens with 16 samples.

Results

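The genes described here are 47 genes for mitotic kinesins, spindle proteins and cytokinesis proteins, chosen as a named list and matched by gene symbol in 6 deposited tables of knockdown against control. All 47 were found in every table, out of 19315 genes listed in at least 1 table and 12069 listed in all 6. The RNA came from HCT116, a human colorectal carcinoma cell line, and U2OS, a human osteosarcoma cell line. In each line, 4 groups were compared at 48 hours: a non-targeting small interfering RNA (siCtrl), siRNA against MYBL1, siRNA against MYBL2, and both targeting siRNAs together (siMYBL1-siMYBL2, called the double knockdown). Each of the 8 groups had 2 biological replicates, 16 libraries in all, and all 3 knockdowns of a line were set against the same siCtrl libraries. The sources used here give neither the siRNA sequences nor how many duplexes were pooled. The study asked what MYBL1 (A-MYB) and MYBL2 (B-MYB) do in cycling cells, and whether 1 factor can stand in for the other. The tables hold no values per library, so levels are given per group.

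Kinesins are motors that walk along microtubules or take them apart, and a subset of them acts only or mainly in mitosis, where they build the bipolar spindle, move chromosomes and organise the midzone between the separating chromosomes. Non-motor proteins nucleate, bundle and cap the same microtubules, many of them under the control of the small GTPase Ran and the kinase Aurora A, and a further set at the midzone tells the cell cortex where to place the contractile ring that divides the cell. The transcripts of most of these genes are known to peak in G2 and mitosis. The targets belong to the MYB family of transcription factors, and MYBL2 is known to join the MuvB complex, which binds the cell cycle genes homology region (CHR) of late cell cycle promoters.

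The targeted genes were checked first. MYBL2 stood at 9.05% of siCtrl (7.04 to 11.6) after siMYBL2 and 9.92% (7.89 to 12.5) after the double knockdown in HCT116, and at 4.53% (3.55 to 5.77) and 4.34% (3.39 to 5.55) in U2OS. MYBL1 stood at 31.4% of siCtrl (20.5 to 48.3) after siMYBL1 and 27.8% (16.8 to 45.9) after the double knockdown in HCT116, and at 50.7% (33.5 to 76.9) and 43.5% (27.5 to 68.6) in U2OS, and the intervals of the lines overlapped. The factor not targeted stood at 97.6% of siCtrl (79.6 to 119.7) and 81.6% (63.4 to 105) for MYBL2 after siMYBL1, and at 75.6% (52.3 to 109) and 86.4% (59.9 to 125) for MYBL1 after siMYBL2, in HCT116 and U2OS. These percentages were computed here from the log2 fold changes and standard errors of the authors' deposited tables, and the bracketed range is a 95% interval from the standard error. Of 13 epithelial marker genes, 11 had a base mean (the mean normalized count over the 4 libraries of a table) of at least 100 in HCT116 and 4 in U2OS, and VIL1 was listed in neither. Of 14 mesenchymal and bone marker genes, 3 reached it in HCT116 and 10 in U2OS, where TWIST1 and COL1A2 were not listed. No member of a list of 8 blood cell genes reached that level in either line.

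Promoters of several of these genes are shown first, because a CHR and a CCAAT box are the promoter elements by which late cell cycle genes are usually recognised. RefSeq (GRCh38.p14) promoter entries, from 250 bases before to 50 bases after the start, were matched by symbol for 43 of the 47 genes, and TPX2, FAM83D, RACGAP1 and TROAP had no entry in the table used. These 43 genes have 50 entries, and a gene was counted when any of its entries held the letters. On either strand, TTTGAA, the core of the CHR, was present for 29 of the 43 genes, 67.4% (95% exact interval 51.5 to 80.9), beside 14.2% of 12845 listed genes with an entry, counted in the same way. CCAAT was present in 31 of 43, 72.1% beside 42.6% of listed genes. Both were present in 25 of 43, 58.1% beside 5.95%. The 100 bases before the start are printed below for 7 genes with TTTGAA, of which CKAP2L, HMMR, DEPDC1 and PRR11 were among the genes with the lowest levels after the double knockdown and PRC1, KIF11 and GTSE1 represent the midzone, a motor and a regulator of a motor. Capitals mark TTTGAA (or TTCAAA, the same element on the other strand) and CCAAT (or ATTGG). Starts are RefSeq's, and for 10 of the 12 genes printed here and below they lie downstream of the gene start in the deposited tables, by 14 (PRR11) to 1094 bases (PRC1) and by 19025 bases for KIF11, with KIF20A at 393 and HMMR at 429. For GTSE1 and HAUS6 the starts coincide. The regions, on the strand of the gene, are chr2:112764610-112764709 (-) for CKAP2L, chr5:163460532-163460631 (+) for HMMR, chr1:68497083-68497182 (-) for DEPDC1, chr15:90994536-90994635 (-) for PRC1, chr10:92593030-92593129 (+) for KIF11, chr22:46296770-46296869 (+) for GTSE1 and chr17:59155646-59155745 (+) for PRR11.
CKAP2L: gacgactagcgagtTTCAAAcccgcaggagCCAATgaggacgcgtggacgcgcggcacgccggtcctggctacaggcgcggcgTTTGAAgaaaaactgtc
HMMR: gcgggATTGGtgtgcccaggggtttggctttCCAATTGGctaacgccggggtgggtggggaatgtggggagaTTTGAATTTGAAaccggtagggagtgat
DEPDC1: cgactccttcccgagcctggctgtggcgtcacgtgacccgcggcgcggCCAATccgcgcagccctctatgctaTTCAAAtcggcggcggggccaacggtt
PRC1: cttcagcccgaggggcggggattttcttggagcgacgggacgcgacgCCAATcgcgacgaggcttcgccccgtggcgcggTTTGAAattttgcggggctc
KIF11: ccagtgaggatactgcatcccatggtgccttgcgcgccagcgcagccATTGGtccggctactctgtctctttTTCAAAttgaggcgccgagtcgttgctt
GTSE1: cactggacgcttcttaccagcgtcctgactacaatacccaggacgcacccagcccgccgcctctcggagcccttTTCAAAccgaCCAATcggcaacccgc
PRR11: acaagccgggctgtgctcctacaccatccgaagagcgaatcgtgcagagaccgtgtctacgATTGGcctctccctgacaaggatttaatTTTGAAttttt

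In HMMR, TTTGAA occurred as a pair of adjacent copies that ended 17 bases before the start, and in CKAP2L it occurred on the minus strand at -86 to -81 and on the plus strand at -17 to -12, with the base before the start counted as -1. In DEPDC1 and KIF11, TTTGAA lay on the minus strand at -27 to -22 and -28 to -23. Over all entries of members, 44 matches were found and 29 of them lay within 50 bases of the start, in 26 genes. In the shorter window from 100 bases before to 50 after the start, 65.1% of members and 6.18% of listed genes held TTTGAA. A variant with TTCGAA was found in 2 members, KIF22 and PSRC1. AACGG, the core of the MYB recognition sequence, was present in 21 of 43 (48.8% beside 30.4% of listed genes), and TTGGCGC, an E2F sequence, in 6 of 43 (14.0% beside 5.68%).

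For contrast, 5 promoters without TTTGAA are printed from the same table. KIF20A and KIF2C are genes whose transcripts fell after the double knockdown in both lines, whereas KIF2A and HAUS6 were called in no comparison with siCtrl and NUMA1 was called lower in U2OS alone. The regions are chr5:138179012-138179111 (+) for KIF20A, chr1:44739737-44739836 (+) for KIF2C, chr11:72080543-72080642 (-) for NUMA1, chr5:62306106-62306205 (+) for KIF2A and chr9:19102905-19103004 (-) for HAUS6.
KIF20A: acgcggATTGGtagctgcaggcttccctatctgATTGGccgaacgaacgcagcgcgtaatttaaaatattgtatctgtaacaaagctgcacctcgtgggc
KIF2C: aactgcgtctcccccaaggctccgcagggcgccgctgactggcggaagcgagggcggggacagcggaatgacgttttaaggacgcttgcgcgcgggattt
NUMA1: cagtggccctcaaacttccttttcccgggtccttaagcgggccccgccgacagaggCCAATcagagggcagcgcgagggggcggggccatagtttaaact
KIF2A: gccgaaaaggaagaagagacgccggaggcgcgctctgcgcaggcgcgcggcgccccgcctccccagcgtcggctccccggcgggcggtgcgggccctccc
HAUS6: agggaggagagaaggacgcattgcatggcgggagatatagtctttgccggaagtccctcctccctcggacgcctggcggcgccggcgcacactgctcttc

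KIF20A held a pair of CCAAT boxes, at -94 to -90 and -67 to -63 on the minus strand, and NUMA1 held 1. A match is a description of these letters and not of a bound site, and no match says only that the letters are not in this window.

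Most spindle and cytokinesis transcripts fell after the double knockdown in both lines, and fewer passed the test after either single knockdown. In HCT116, siMYBL1 left 0 of the 47 genes called by the authors' DESeq2 test (Wald test, adjusted p under 0.05), with 5 at an unadjusted p under 0.05, siMYBL2 lowered 17 and the double knockdown lowered 40. Over all genes of those tables, 0.144%, 0.837% and 4.12% were called lower. In U2OS, siMYBL1 lowered 13, siMYBL2 22 and the double knockdown 40, beside 2.27%, 3.51% and 6.06% of all genes. At an adjusted p under 0.01, the count for siMYBL1 in U2OS was 6, beside 1.07% of all genes. No member was called higher in any of the 6 tables. Over all genes, those called higher ran from 20 of 17323 after siMYBL1 in HCT116 to 1100 of 16803 after the double knockdown in U2OS. The members' median level was 90.7%, 72.3% and 34.9% of siCtrl after siMYBL1, siMYBL2 and the double knockdown in HCT116, and 75.5%, 68.2% and 29.4% in U2OS. On the log2 scale of the authors' deposited tables the HCT116 medians were -0.14, -0.47 and -1.52 and the U2OS medians -0.41, -0.55 and -1.77, while the median of all genes lay between -0.02 and 0.02. After the double knockdown 33 members in HCT116 and 37 in U2OS stood below 50% of siCtrl, and 11 and 16 stood below 25%. Genes below these levels were not counted over all genes. In bulk RNA, fewer cells in a stage of the cycle and less RNA per cell cannot be told apart.

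**Figure D1:**
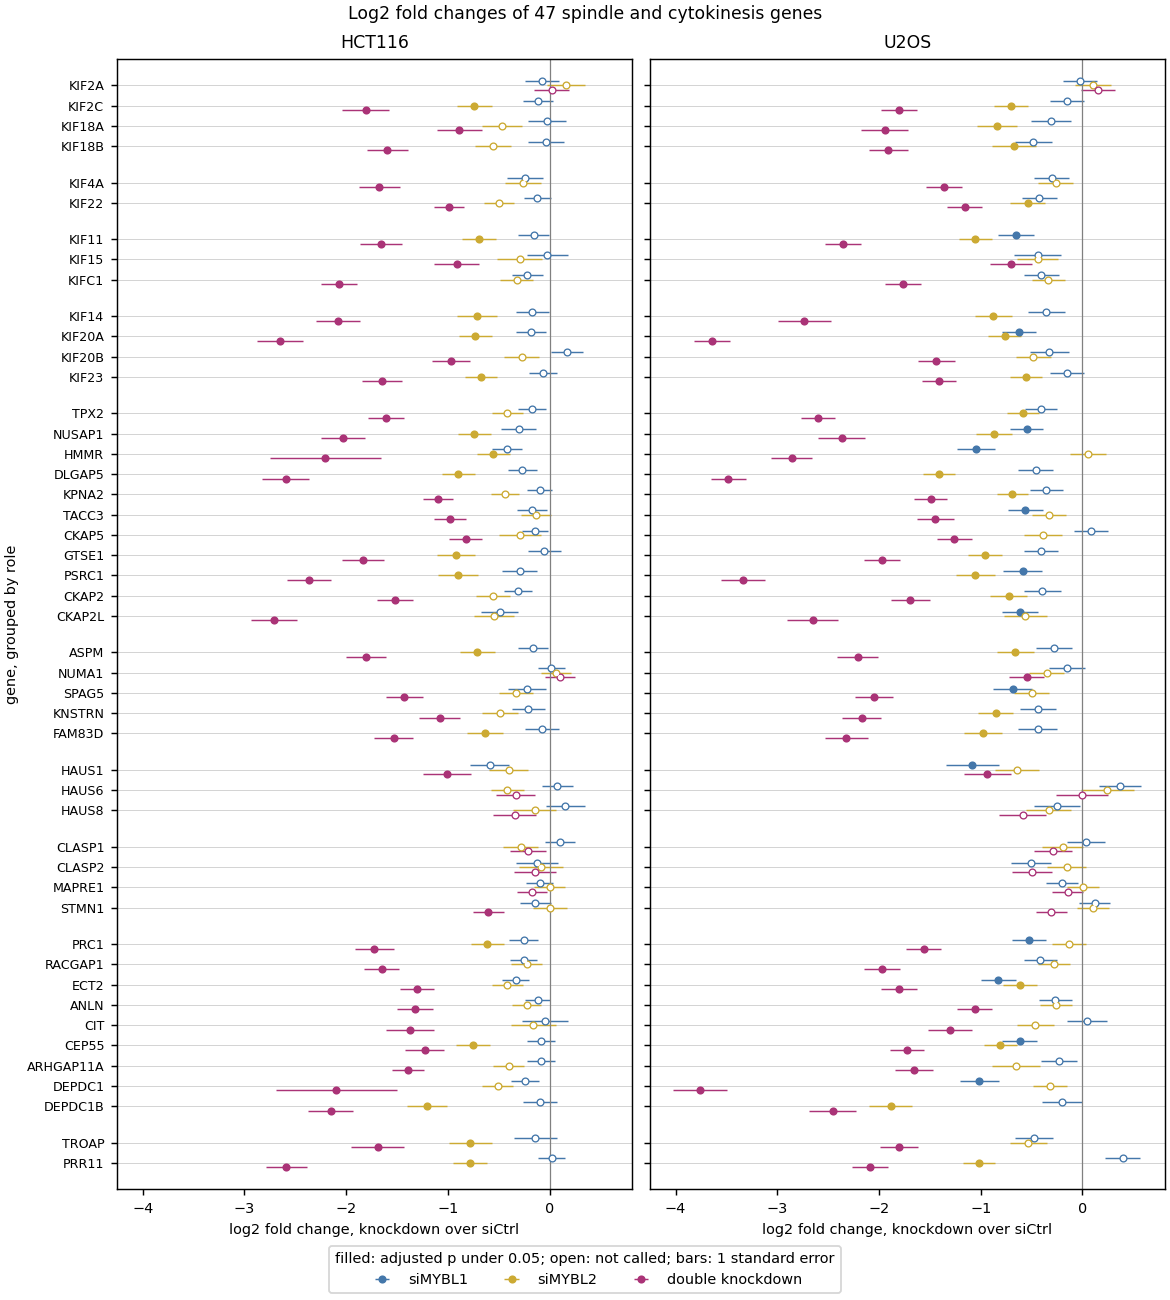
Log2 fold change of knockdown over siCtrl (x axis) for the 47 genes (y axis, grouped by role) in each line after each single knockdown and the double knockdown, as deposited by the authors, where filled points had an adjusted p under 0.05, open points did not, and bars are 1 standard error. The points of the double knockdown lie left of both single knockdowns for 43 genes in each line, and KIF2A, CLASP1, CLASP2 and MAPRE1 lie between -0.51 and 0.16 throughout.

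A set of 39 genes was called lower in both double knockdowns. The same count was not taken over all genes, and the 531 of 12885 called lower in HCT116 (4.12%) are its upper limit. STMN1 was called only in HCT116 and NUMA1 only in U2OS, and neither difference between the lines was called (0.30, adjusted p 0.799, and -0.65, adjusted p 0.154, on the log2 scale, U2OS minus HCT116, by a normal test of the difference adjusted over all genes). KIF2A, CLASP1, CLASP2, MAPRE1, HAUS6 and HAUS8 were called in no table. Every member was well above the low end of the tables, with base means from 429.8 for HAUS8 to 11712.5 for KPNA2, and all 47 passed every filter on low values, in every table.

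Among the kinesins that set microtubule length, KIF2C, KIF18A and KIF18B fell after the double knockdown in both lines and KIF2A did not pass the test in any comparison. KIF2C (MCAK), which takes tubulin off microtubule ends to correct faulty kinetochore attachments, stood at 28.6% of siCtrl (20.8 to 39.2) in HCT116 and 28.7% (22.6 to 36.3) in U2OS, and siMYBL2 alone left 59.9% and 61.5%. KIF18A, which shortens kinetochore microtubules and damps chromosome movement, stood at 54.0% of siCtrl (40.1 to 72.8) in HCT116 and 26.0% (19.0 to 35.6) in U2OS. Its difference between lines was -1.05 ± 0.32 (SE) with adjusted p 0.0657, which does not pass 0.05. KIF18B, which acts on astral microtubules, stood at 33.1% and 26.6% after the double knockdown, and siMYBL2 lowered it in U2OS (62.6%) but gave adjusted p 0.0974 at 68.1% in HCT116, in the authors' deposited tables. KIF2A, the close relative of KIF2C that works at spindle poles and in neurons, ranged from 95.1% to 112% over the 6 comparisons.

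The chromokinesins, which push chromosome arms away from the poles, fell after the double knockdown in both lines. KIF4A stood at 31.3% of siCtrl (23.8 to 41.3) in HCT116 and 38.9% (30.6 to 49.5) in U2OS, and in the single knockdowns it ranged from 81.1% to 84.4% without a call. KIF22 (Kid) stood at 50.3% and 44.8%, with 69.0% after siMYBL2 in U2OS (adjusted p 0.0392 in the authors' deposited table). KIF4A has a near-identical retrocopy, KIF4B, so its reads may have been split between them.

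Of the motors that build the bipolar spindle, all 3 members fell after the double knockdown in both lines. KIF11 (Eg5, ENSG00000138160, chr10:92574105-92655395, plus strand), which slides antiparallel microtubules apart to separate the poles, stood at 31.7% of siCtrl (23.8 to 42.2) in HCT116 and 19.6% (15.4 to 24.9) in U2OS. In U2OS it was also lowered by each single knockdown, to 63.5% by siMYBL1 and 48.2% by siMYBL2. KIF15, which can hold a spindle bipolar beside KIF11, changed least of the 3, to 53.1% and 61.6%. KIFC1 (HSET), a minus-end motor that focuses spindle poles, was at 85.9% and 79.8% after the single knockdowns in HCT116, neither of them called, and at 23.8% of siCtrl (18.7 to 30.3) after both.

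The midzone and cytokinesis motors KIF14, KIF20A, KIF20B and KIF23 fell after the double knockdown in both lines, with a median log2 fold change of -1.86 in HCT116 and -2.09 in U2OS over the authors' deposited values. KIF20A (MKLP2, ENSG00000112984, chr5:138178719-138187723, plus strand), which carries the chromosomal passenger complex to the midzone, had the lowest level of the 13 kinesins in both lines, 15.9% of siCtrl (11.7 to 21.6) in HCT116 and 8.01% (6.28 to 10.2) in U2OS. Its log2 fold changes in the authors' deposited tables were -0.18 ± 0.15, -0.73 ± 0.16 and -2.65 ± 0.23 in HCT116 and -0.63 ± 0.17, -0.76 ± 0.16 and -3.64 ± 0.18 in U2OS, in the same order of knockdowns as above. Only the first of these 6 was not called, and the step from the single to the double knockdown was larger than either single change.

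KIF14 (ENSG00000118193, chr1:200551497-200620751, minus strand), which binds PRC1 and citron kinase at the midbody, stood at 23.6% of siCtrl (17.6 to 31.7) in HCT116 and 15.0% (10.6 to 21.3) in U2OS after the double knockdown. KIF23 (MKLP1), the motor subunit of centralspindlin, stood at 32.0% and 37.7%, and siMYBL2 alone lowered it to 62.6% and 68.2%. KIF20B, the relative of KIF20A, was at 51.1% in HCT116 and 36.9% in U2OS and was called after no single knockdown.

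All 11 spindle assembly factors that are linked to Ran or Aurora A fell after the double knockdown in both lines, from CKAP5 at the high end (56.5% in HCT116) to DLGAP5 at the low end in U2OS (8.95%) and CKAP2L in HCT116 (15.3%). TPX2 (ENSG00000088325, chr20:31739271-31801805, plus strand), which activates Aurora A once Ran frees it from importin, stood at 32.8% of siCtrl (25.9 to 41.6) in HCT116 and 16.5% (13.2 to 20.6) in U2OS after the double knockdown. In the single knockdowns it lay between 66.7% and 88.7%, and only siMYBL2 in U2OS was called. KPNA2, the importin alpha that holds TPX2 inactive, stood at 46.7% and 35.5%. KPNA2 has processed pseudogenes, and the sources used here do not say how reads shared with them were counted.

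DLGAP5 (HURP, ENSG00000126787, chr14:55148112-55191608, minus strand), which stabilises kinetochore fibres, fell to 16.6% of siCtrl (12.1 to 22.7) in HCT116 and 8.95% (7.09 to 11.3) in U2OS. After siMYBL2 alone it stood at 53.8% of siCtrl (43.2 to 66.9) and 37.6% (30.3 to 46.7), and after siMYBL1 alone at 83.1% and 72.7%, neither of which was called. PSRC1 (DDA3), which brings KIF2A to the spindle, followed the same order, with 81.5%, 53.5% and 19.4% in HCT116 and 66.5%, 48.2% and 9.89% in U2OS. GTSE1, an inhibitor of KIF2C, was lowered to 52.9% and 51.5% by siMYBL2 and to 28.1% and 25.5% by both siRNAs. For GTSE1 the double knockdown was not called below siMYBL2 in HCT116 (-0.91 ± 0.28 SE, adjusted p 0.134), and was called in U2OS (-1.01 ± 0.25 SE, adjusted p 0.00601).

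HMMR (ENSG00000072571, chr5:163460203-163491941, plus strand), a microtubule-associated protein that locates TPX2 at the spindle poles, was lowered by siMYBL1 but not called after siMYBL2 in U2OS. It stood at 48.4% of siCtrl (37.7 to 62.3) after siMYBL1 and 104% (81.7 to 132) after siMYBL2 there, a difference that passed its own test (given below with the single knockdowns). In HCT116 it stood at 74.8% and 68.1%, with adjusted p 0.489 and 0.0495 in the authors' deposited tables. After both siRNAs it stood at 21.7% of siCtrl (10.3 to 45.6) in HCT116 and 13.8% (10.5 to 18.1) in U2OS. The HCT116 interval is wide because the deposited standard error was 0.546 there, beside a median of 0.196 over the members in the authors' deposited table.

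NUSAP1, which bundles microtubules near chromatin, was lowered by siMYBL2 in both lines (59.9% and 54.6%) and further by both siRNAs (24.5% and 19.4%). CKAP2L (ENSG00000169607, chr2:112736349-112764664, minus strand), a spindle protein related to CKAP2, stood at 71.2% and 68.4% after the single knockdowns of HCT116, without a call, and at 15.3% of siCtrl (11.3 to 20.7) after both. Its level in the U2OS double knockdown was 15.9%. CKAP2 fell to 34.9% and 30.9%. TACC3 and CKAP5 (ch-TOG), which with clathrin cross-link kinetochore fibres, fell to 50.7% and 56.5% in HCT116 and to 36.7% and 41.7% in U2OS.

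At the spindle poles and kinetochore attachments, ASPM, SPAG5, KNSTRN and FAM83D fell after the double knockdown in both lines. ASPM, which binds microtubule minus ends and whose loss causes a small brain, stood at 28.6% in HCT116 and 21.6% in U2OS, and siMYBL2 alone left 61.2% and 63.3%. SPAG5 (astrin) and KNSTRN (kinastrin) form a complex that stabilises end-on attachments. SPAG5 stood at 37.2% in HCT116 and 24.2% in U2OS, and KNSTRN at 47.3% of siCtrl (36.1 to 62.0) and 22.2% (17.2 to 28.6). FAM83D, which directs casein kinase 1 alpha to the spindle, stood at 34.6% and 20.0%. NUMA1, which anchors dynein at the poles and the cortex, was at 108% of siCtrl (87.9 to 132) in HCT116 and 68.3% (54.0 to 86.4) in U2OS (adjusted p 0.0161 in the authors' deposited table).

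Augmin, the complex that nucleates new microtubules from the sides of existing ones, had 3 subunits among the members, and of these only HAUS1 was called. HAUS1 stood at 66.5% of siCtrl (51.2 to 86.4), 75.7% (58.6 to 97.8) and 49.7% (36.1 to 68.5) after siMYBL1, siMYBL2 and both in HCT116, where only the last was called. In U2OS it stood at 47.3% of siCtrl (33.2 to 67.4), 64.1% (47.9 to 85.9) and 52.3% (38.4 to 71.3), where the value after siMYBL2 was not called. The double knockdown of U2OS was 0.15 ± 0.35 (SE) above siMYBL1 on the log2 scale, with an interval on both sides of 0 (adjusted p 1). HAUS6 was at 79.5% and 99.7% and HAUS8 at 78.9% and 66.5% after the double knockdown.

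Of the proteins that act on microtubule ends and free tubulin through the whole cycle, only STMN1 was called, and only in HCT116. MAPRE1 (EB1), which tracks growing ends, stood at 88.8% of siCtrl (72.7 to 109) in HCT116 and 90.4% (73.2 to 111) in U2OS after the double knockdown. CLASP1, which EB1 helps to place there, stood at 86.3% and 81.6%, and CLASP2 at 90.6% and 70.8%. STMN1 (stathmin), which binds free tubulin, was lowered to 65.8% of siCtrl (53.4 to 80.9) in HCT116 (adjusted p 0.00256) and stood at 80.9% in U2OS (adjusted p 0.216), by the authors' deposited tables.

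All 9 midzone and ring proteins fell after the double knockdown in both lines, with a median log2 fold change of -1.39 in HCT116 and -1.72 in U2OS over the authors' deposited values. PRC1, which bundles the antiparallel microtubules of the midzone, stood at 30.2% of siCtrl (23.3 to 39.3) and 33.9% (26.8 to 42.9). The single knockdowns that lowered it were siMYBL2 in HCT116 (65.5%) and siMYBL1 in U2OS (69.3%), but neither difference between the lines was called (adjusted p 1 for siMYBL2 and 1 for siMYBL1 by the difference of fold changes). RACGAP1 (ENSG00000161800, chr12:49976923-50033136, minus strand), the GTPase-activating subunit of centralspindlin, was at 83.7% and 85.7% after the single knockdowns in HCT116 and at 31.9% of siCtrl (25.2 to 40.3) after both. In U2OS the 3 values were 75.0%, 82.2% and 25.5% of siCtrl (20.0 to 32.4), and the singles were not called in either line.

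ECT2, the exchange factor that starts ring assembly at the equator and is recruited by centralspindlin, fell to 40.5% in HCT116 and 28.7% in U2OS, and in U2OS each single knockdown lowered it (56.4% after siMYBL1, 65.4% after siMYBL2). ANLN (anillin), the scaffold of the contractile ring, stood at 39.9% and 48.1%, and CIT (citron kinase) at 38.6% and 40.6%. Neither of them was called after a single knockdown. CEP55, which brings the abscission machinery to the midbody, was lowered by siMYBL2 alone to 59.5% and 57.2% and by both siRNAs to 42.7% and 30.3%. ARHGAP11A, a GTPase-activating protein with a partial copy in the genome, ARHGAP11B, stood at 38.0% and 31.7%.

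DEPDC1 (ENSG00000024526, chr1:68474152-68497221, minus strand) and DEPDC1B (ENSG00000035499, chr5:60596912-60700190, minus strand), relatives that share a DEP domain, were called after different single knockdowns in U2OS. DEPDC1 stood at 49.6% of siCtrl (38.2 to 64.2) after siMYBL1 and 80.2% (63.6 to 101) after siMYBL2 in U2OS, whereas DEPDC1B stood at 87.0% (66.7 to 114) and 27.1% (20.4 to 35.9). In HCT116 DEPDC1B stood at 93.7% after siMYBL1 and 43.4% of siCtrl (33.1 to 56.8) after siMYBL2, and DEPDC1 at 84.7% and 70.2% without a call. After both siRNAs DEPDC1 stood at 23.4% of siCtrl (10.4 to 52.3) in HCT116 and 7.38% (5.16 to 10.5) in U2OS, the latter the lowest level of any member in any table. DEPDC1B stood at 22.5% of siCtrl (16.6 to 30.5) and 18.2% (13.4 to 24.9). The difference between the single knockdowns in U2OS was called for DEPDC1B and not for DEPDC1 (-0.69 ± 0.26 SE, siMYBL1 minus siMYBL2, adjusted p 0.141). The deposited standard error of DEPDC1 in the HCT116 double knockdown, 0.593, was the highest of any member in the authors' deposited table, and the double knockdown was not called below siMYBL2 there (-1.59 ± 0.61 SE, adjusted p 0.696).

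PRR11 (ENSG00000068489, chr17:59155732-59206709, plus strand) and TROAP were the members placed in no role group. PRR11 stood at 102% of siCtrl (84.7 to 122), 58.3% (46.5 to 73.0) and 16.6% (12.6 to 21.9) after siMYBL1, siMYBL2 and both in HCT116. In U2OS the values were 132% of siCtrl (104 to 167), 49.3% (39.8 to 61.0) and 23.5% (18.5 to 29.9), and the first of them was not called (adjusted p 0.190 in the authors' deposited table). TROAP fell to 31.0% and 28.6% after both siRNAs.

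**Figure D2:**
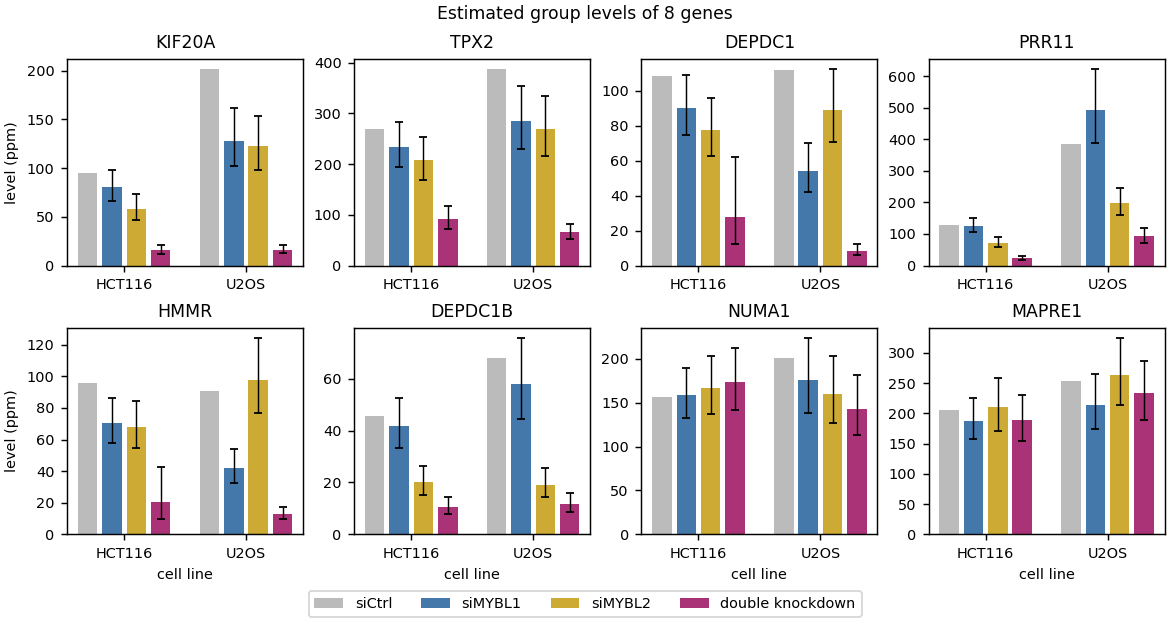
Estimated level (y axis, ppm, parts of 1000000 of the summed levels of the group) of 8 genes in the 4 groups of each cell line (x axis), where the siCtrl bar is the median over 3 tables, the other bars come from 1 table each, and error bars are 95% intervals from the standard error of the fold change. KIF20A, TPX2, DEPDC1, PRR11, HMMR and DEPDC1B are lowest after the double knockdown in both lines, and in U2OS siMYBL1 lowers DEPDC1 and HMMR while siMYBL2 lowers DEPDC1B and PRR11.

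Sorting the members by where they were called gave 11 patterns, which were not counted over all genes. The largest held 9 genes each: KIF2C, KIF14, KIF23, DLGAP5, ASPM, FAM83D, DEPDC1B, GTSE1 and PRR11 were called after siMYBL2 and after both siRNAs in both lines, and KIF4A, KIF15, KIF20B, KIFC1, CKAP5, RACGAP1, ANLN, CIT and ARHGAP11A only after both siRNAs in both lines. KIF11, KIF20A, NUSAP1, CEP55 and PSRC1 were called in every table but HCT116 siMYBL1. CKAP2L, SPAG5, TACC3, HAUS1 and DEPDC1 were called after both siRNAs in both lines and after siMYBL1 in U2OS, but not after siMYBL2 in either. All tables of a line share their siCtrl libraries. A call in 1 table and its absence in another is not a test of their difference, and those tests follow.

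The double knockdown was set against each single knockdown by the difference of the log2 fold changes. Against siMYBL1, it was lower for 32 of 47 members in HCT116 and 35 in U2OS, beside 1.12% and 1.44% of all genes tested. Against siMYBL2, it was lower for 24 in HCT116 and 31 in U2OS, beside 0.544% and 0.795%. No member was higher in the double knockdown in any of these 4 comparisons. The largest differences from siMYBL2 were -2.16 ± 0.30 (SE) for CKAP2L in HCT116 (adjusted p 1.37e-09) and -3.44 ± 0.31 for DEPDC1 in U2OS (adjusted p 1.23e-24), by a normal test with Benjamini-Hochberg adjustment over all genes. DEPDC1B was called in neither line against siMYBL2, at -0.95 ± 0.30 in HCT116 (adjusted p 0.185) and -0.57 ± 0.31 in U2OS (adjusted p 1). These comparisons share control libraries, so the summed error is too large and the counts are conservative.

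The double knockdown was also set against the sum of the single log2 fold changes, which is what independent effects that multiply would give. It lay below the sum for 44 of 47 members in HCT116 and 42 in U2OS. The median departure was -0.86 in HCT116 and -0.77 in U2OS on the log2 scale, beside -0.02 and -0.01 over all genes. The departure was called for 6 members in HCT116 and 11 in U2OS, beside 0.132% and 0.211% of all genes tested (17 genes in HCT116 and 31 in U2OS). A smaller error, with the shared control variance removed, took controls and knockdown to hold equal parts of each squared standard error. By that error, 15 members were called below the sum in each line, beside 0.272% of all genes in HCT116 and 0.327% in U2OS.

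KIF20A, DLGAP5, CKAP2L, RACGAP1 and PRR11 were called in both lines. For KIF20A the departure was -1.73 ± 0.32 (SE) in HCT116 (adjusted p 1.65e-04) and -2.25 ± 0.30 in U2OS (adjusted p 2.17e-10). PRR11 had the largest in HCT116, -1.83 ± 0.29 (adjusted p 5.24e-06), and DEPDC1 the largest in U2OS, -2.43 ± 0.37 (adjusted p 1.27e-07). KIFC1 was called only in HCT116, at -1.53 (adjusted p 3.07e-04), and stood at -1.03 in U2OS (adjusted p 0.204). TPX2, HMMR, PSRC1, KIF14, ASPM and DEPDC1 were called only in U2OS, with TPX2 at -1.61 there and -1.02 in HCT116 (adjusted p 1.96e-05 and 0.0821). Whether the departure itself differed between the lines was not tested.

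**Figure D3:**
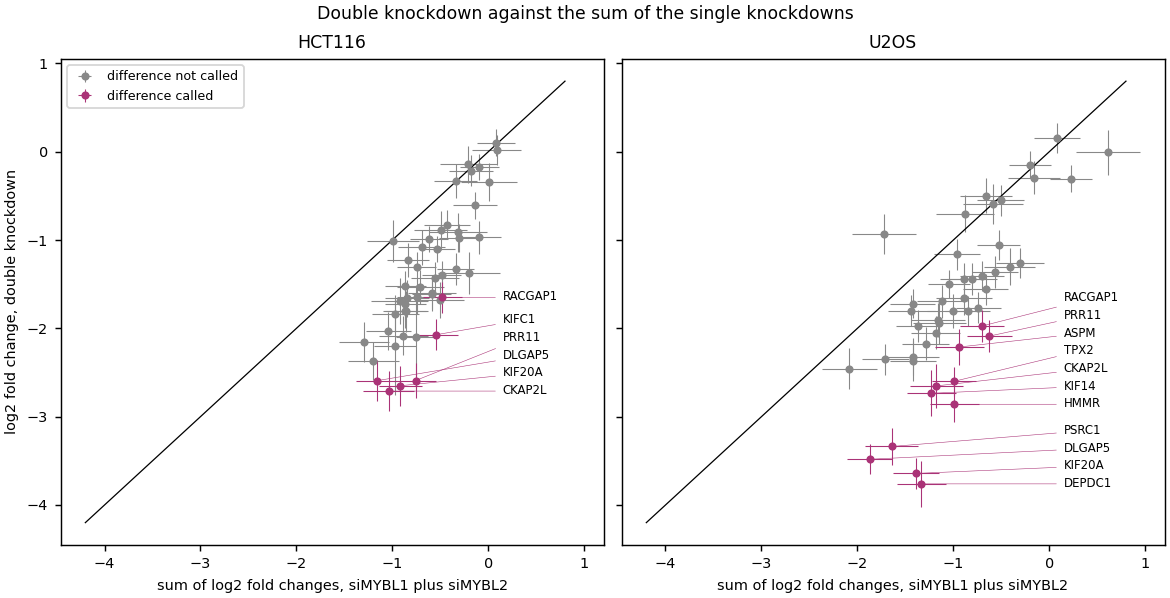
Log2 fold change of the double knockdown (y axis) against the sum of the log2 fold changes of siMYBL1 and siMYBL2 (x axis) for the 47 genes in each line, with 1 standard error on each axis and the line of equality. Named points are the 6 genes in HCT116 and 11 in U2OS whose difference had an adjusted p under 0.05, and 44 and 42 genes lie below the line.

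The single knockdowns were then set against each other, first with the summed error. On the log2 scale of the authors' deposited tables, siMYBL1 changed MYBL1 by -1.67 in HCT116 and -0.98 in U2OS. There siMYBL2 changed MYBL2 by -3.47 and -4.47, and the part of this unequal depth in the differences below was not tested. In HCT116, 2 members were higher after siMYBL1 than after siMYBL2, beside 0.388% of all genes, and none was lower (16 at an unadjusted p under 0.05 in either direction). They were DEPDC1B (1.11 ± 0.26 SE, adjusted p 0.00788) and PRR11 (0.80 ± 0.21, adjusted p 0.0367). In U2OS, 3 members were higher after siMYBL1, beside 2.22% of all genes, and 1 was lower, beside 0.701%. DEPDC1B (1.68 ± 0.29, adjusted p 1.32e-06), PRR11 (1.42 ± 0.24, adjusted p 6.63e-07) and DLGAP5 (0.95 ± 0.24, adjusted p 0.00428) were the higher ones. HMMR was the lower one (-1.10 ± 0.26, adjusted p 0.00171). DEPDC1B and PRR11 were thus called in the same direction in both lines. With the shared control variance removed from the error, 12 members were higher after siMYBL1 in HCT116, beside 2.6% of all genes, and none was lower. By that error 7 were higher and 2 lower in U2OS, beside 7.02% and 3.84% of all genes.

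The response differed between the lines beyond its error for few members. The siMYBL1 response differed between U2OS and HCT116 for 0 members by the normal test (6 at an unadjusted p under 0.05), beside 0.0148% of all genes lower in U2OS, although 13 members were called in U2OS and 0 in HCT116. The members' median difference was -0.23 on the log2 scale, with 41 of 47 below 0, beside 0.01 over all genes. The widest difference was that of DEPDC1, -0.77 ± 0.24 (SE, adjusted p 0.250). The siMYBL2 response differed for 0 members (5 at an unadjusted p under 0.05), beside 0.175% of all genes lower in U2OS. After siMYBL2, 14 members were called lower in both lines. Of all genes, 0.837% were called lower in HCT116 and 3.51% in U2OS, and those called in both were not counted.

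After the double knockdown, 3 members fell further in U2OS than in HCT116, beside 0.751% of all genes lower in U2OS, and none fell further in HCT116. At an adjusted p under 0.01 the count was 1, beside 0.307% of all genes. They were TPX2 (-0.99 ± 0.24 SE, adjusted p 0.00782), KNSTRN (-1.09 ± 0.27, adjusted p 0.0119) and KIF20A (-0.99 ± 0.29, adjusted p 0.0445). DEPDC1 had the widest gap, -1.66, but a standard error of 0.65 and adjusted p 0.254. PRR11 had the higher level in U2OS, with 16.6% in HCT116 and 23.5% in U2OS, and its difference of 0.50 was not called (adjusted p 0.569).

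**Figure D4:**
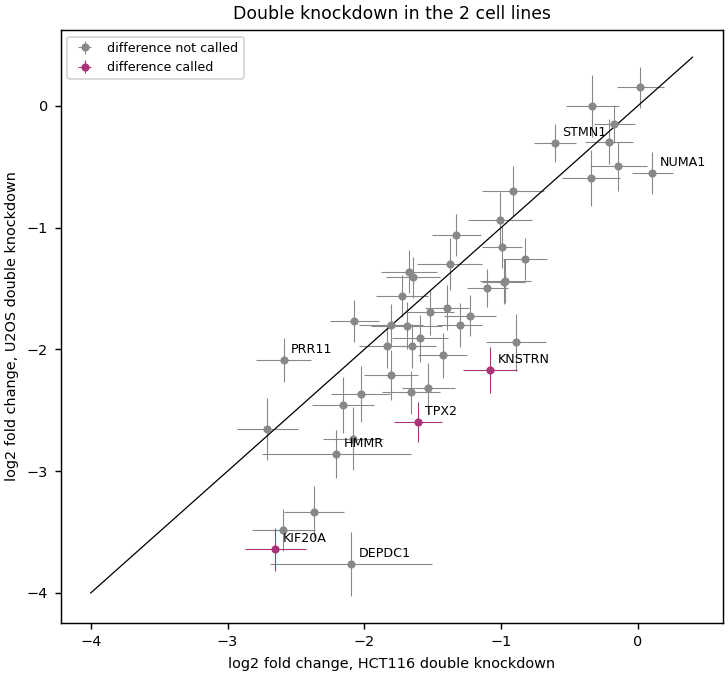
Log2 fold change of the double knockdown over siCtrl in U2OS (y axis) against HCT116 (x axis) for the 47 genes, with 1 standard error on each axis and the line of equality. TPX2, KNSTRN and KIF20A, the 3 coloured points, had a difference between lines with an adjusted p under 0.05, and the other 5 named points did not.

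The siCtrl levels of the members were also set side by side for the 2 lines. Levels of siCtrl were computed here from base mean and fold change, in ppm (parts of 1000000) of the summed siCtrl levels of a table, and compared within a gene only, since gene length was not used. They were higher in U2OS for 39 members and lower for 8, with a median U2OS to HCT116 ratio of 1.46. The same ratio was not computed over all genes, so a shift shared by many genes is not told apart. The ratio ran from 0.439 for HAUS6 to 3.03 for PRR11, whose siCtrl level was 127 ppm in HCT116 and 386 in U2OS. KIF20A stood at 94.6 and 202 ppm, and TPX2 at 269.8 and 387. HMMR (96.1 and 90.6) and DEPDC1 (108 and 112) were nearly level. The 3 tables of a line gave siCtrl levels of a member that differed by at most 1.11 times in HCT116 and 1.12 times in U2OS. They share their siCtrl libraries, so that range holds no variation between libraries. Tables of the lines were normalized separately and share no library, so no test was made.

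Other microtubule and cytokinesis genes, in 5 lists, were set beside the members after the double knockdown. Over all genes, 4.12% were called lower in HCT116 and 6.06% in U2OS. Called higher were 364 of 12885 genes in HCT116 and 1100 of 16803 in U2OS. No list was tested against these shares. Of 24 listed transport and other kinesins, 0 were lower and 1 was higher in HCT116 (KIFC3), and of 27 in U2OS 1 was lower and 3 were higher, where KIFC3 (1.20 ± 0.18 SE) and KIF5C (0.93 ± 0.20) had the smallest adjusted p of those that rose, by the authors' deposited table. Among 16 dynein and dynactin genes, 1 was lower in HCT116 and 3 in U2OS, NDE1 in both, at -0.73 ± 0.20 and -1.04 ± 0.21 in the authors' deposited tables. NDE1 binds dynein and its regulator LIS1. Of 33 contractile ring, septin and abscission genes, 1 was lower in HCT116 (DIAPH3, a formin) and 2 lower and 3 higher in U2OS. Of 15 gamma-tubulin ring and other augmin genes, 1 was lower in each line, NEDD1 in HCT116 (-0.56 ± 0.19) and MZT1 in U2OS (-1.34 ± 0.24), in the authors' deposited tables.

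Of 21 microtubule end and Ran genes, 2 were lower and 1 higher in HCT116 and 3 lower and 2 higher in U2OS. RCC1, the exchange factor that loads Ran with GTP on chromatin, was among the lower ones in U2OS (-0.86 ± 0.17 in the authors' deposited table). The medians of these 5 lists after the double knockdown lay between -0.31 and 0.07 in HCT116 and between -0.20 and 0.16 in U2OS, against -1.52 and -1.77 for the members.

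Close relatives of some members were listed too. KIFC1 stood at -1.77 ± 0.18 in U2OS in the authors' deposited table, where KIFC2 stood at 0.10 and KIFC3 at 1.20. TACC3 stood at -1.44 ± 0.18, TACC1 at 0.39 and TACC2 at -0.18 in the same deposited table. KPNA2 stood at -1.49 ± 0.16, KPNA1 at -0.50, KPNA3 at -0.66, KPNA4 at 0.16 and KPNA6 at -0.54, also in that deposited table, so KPNA3 and KPNA6 were lower too (adjusted p 0.0044 and 0.0244). KIFC1, TACC3 and KPNA2 thus had the lowest value of these relatives in U2OS. Not every member stood apart from its relative. After the double knockdown in HCT116, STMN1 stood at -0.60 ± 0.15 and STMN3 at -0.62 ± 0.16 in the authors' deposited table, and both were called lower. No test was made between genes.

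**Figure D5:**
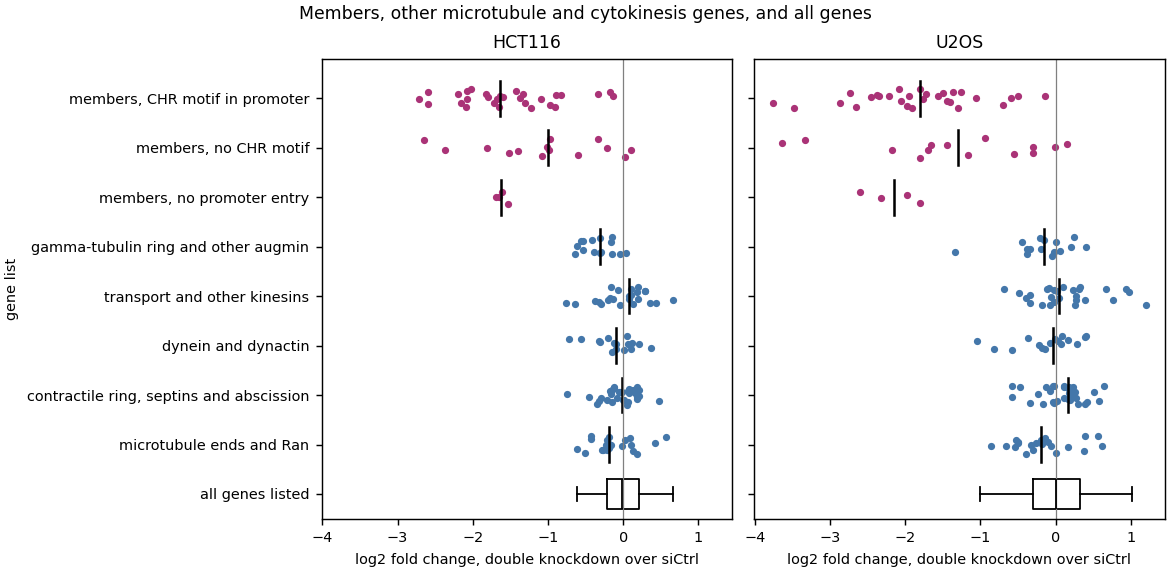
Log2 fold change of the double knockdown over siCtrl (x axis) in each line for the members, split by the CHR motif in the promoter, and for 5 lists of related genes, 1 point a gene, with the median as a bar and a box for all genes of the table (median, quartiles, and whiskers from the 5th to the 95th percentile). Medians of members with the motif, TTTGAA, are -1.65 in HCT116 and -1.80 in U2OS, and those of members without it are -1.0 and -1.30. Members without it include KIF22 and PSRC1, which hold the TTCGAA variant.

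Members with and without the CHR core in their RefSeq promoter both fell. After the double knockdown, 26 of the 29 members with TTTGAA were lower in each line, with a median log2 fold change of -1.65 in HCT116 and -1.80 in U2OS in the authors' deposited tables. Of the 14 without it, 10 were lower in each line, with medians of -1.0 and -1.30, and KIF20A, PSRC1 and KIF2C are among them. The 14 include KIF22 and PSRC1, which hold the TTCGAA variant. The 3 members that hold TTTGAA and were called lower in neither double knockdown were CLASP2, MAPRE1 and HAUS8. Of other listed genes with TTTGAA, 9.08% were lower in HCT116 and 10.5% in U2OS, beside 3.39% and 5.84% of those without. With siMYBL2 alone, 12 of 29 members with TTTGAA (41.4%) were lower in HCT116 and 14 (48.3%) in U2OS. Of the 14 without it, 3 (21.4%) and 6 (42.9%) were lower. Among other listed genes the shares were 2.04% with and 0.567% without TTTGAA in HCT116, and 4.81% and 3.52% in U2OS. These are descriptions, with no test between the classes.

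Short words in the 3′ UTR (longest per gene in GENCODE release 29) were ranked by the single knockdowns over genes that are not members, and were counted in the members. This step was added after the data were seen. Among 7-base words ranked over both lines by the Wald statistics of genes that are not members, GAACTTA and AACTTAA came first for siMYBL1, and CCTTACA and CTTACAA for siMYBL2. Other genes with either siMYBL1 word were lower after siMYBL1 in U2OS in 6.59% of cases, beside 1.38% of those without. The words were picked on these same genes and values, so this contrast follows from the choice and is not a test. Of the members, 8 held either word (CEP55, CLASP2, HAUS6, HMMR, KIF11, KIF14, KIF15 and PRC1), and 4 of these 8 were lower after siMYBL1 in U2OS, beside 9 of the other 39. CKAP2L was the only member with a siMYBL2 word, and no member held CCTTACA. Without the members that hold a word of the siRNAs used, the counts called lower were 0, 17 and 33 in HCT116, in the order siMYBL1, siMYBL2 and both. In U2OS they were 9, 22 and 33, and the last count of each line is out of 38 genes. The part of these words in the remaining values was not tested.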

How the data were processed

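RNA was extracted with the Zymo Direct-zol kit and libraries were made by a provider, per the labels' protocols. Adapter trimming with cutadapt 4.4, quantification with Salmon 1.10.1 and testing with DESeq2 1.40, on build hg38, are named in the submitters' processing notes, with no settings, annotation or strand. The files are 6 tables of the authors' comparisons of 4 libraries each. Per the file headers they give, for each gene, the base mean (a signal: the mean normalized count), the deposited log2 fold change and the standard error of that log2 value, the Wald statistic (a score), and the authors' p-value, raw and Benjamini-Hochberg adjusted. Total counts per library are not analysed here, and the summed base means of a table were 1.74e+07 to 1.98e+07.

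From these values, percentages of siCtrl, group levels in ppm and differences of fold changes were computed with Python 3.11.15, numpy 2.4.6, scipy 1.17.1, pandas 2.3.3 and matplotlib 3.10.9. A difference was divided by the root of the summed squared standard errors, with a 2-sided normal p, adjusted over all genes in the tables used. Within a line this error counts the shared controls more than once and is too large. Removing the shared part assumed equal parts for controls and knockdown in each squared standard error, which was not checked, so those counts are approximate. All 47 members could be named, together with up to 2 genes of each related list per comparison with the smallest adjusted p, and paralogs. The members and lists were chosen with earlier results of these data known. Gene identifiers and coordinates are those of the deposited tables (hg38, per the submitters' processing notes), promoter sequences are RefSeq's on GRCh38.p14, and 3′ UTRs come from GENCODE release 29. How reads shared between near-identical copies (KIF4A, ARHGAP11A and KPNA2 have such copies) were assigned is not given in the sources used here. Alternatives were a stricter threshold, base means from 100 up, genes in all 6 tables, centring, removing the shared control variance, a shorter promoter window and, added after the data were seen, leaving out members with a UTR word.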

Additional observations from a re-analysis of the deposited data

Results flagged for a closer look

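The response to the double knockdown differed between the lines for 3 members, by the test of the difference itself, with Benjamini-Hochberg adjustment over all genes. The log2 fold change of TPX2 in U2OS minus that in HCT116 was -0.99 (SE 0.24, adjusted p 0.00782). That of KIF20A was -0.99 (SE 0.29, adjusted p 0.0445), and that of KNSTRN was -1.09 (SE 0.27, adjusted p 0.0119). The siCtrl level of all 3 was higher in U2OS, with KNSTRN at 67.0 ppm in HCT116 and 101 in U2OS. It was higher in U2OS for 39 of the 47 members. MYBL2 was left at 4.34% of siCtrl in U2OS and 9.92% in HCT116. MYBL1 was left higher in U2OS (log2 fold change -1.20, SE 0.34) than in HCT116 (-1.85, SE 0.37), in the authors' deposited tables. The part of the siCtrl level or of the MYBL1 or MYBL2 level left in these differences was not tested.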

How the results depend on the processing

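Of 73 alternatives for counts and shares, 66 stayed within 1.5 times the reported value and 7 did not, and no direction reversed. With adjusted p under 0.01, U2OS siMYBL1 called 6 members lower, HCT116 siMYBL1 against siMYBL2 called 1, and the double response called 1 between lines. Centred on the median of all genes, HCT116 siMYBL1 against siMYBL2 called 1. Without the shared control variance, siMYBL1 against siMYBL2 called 12 in HCT116 and 9 in U2OS, and the departure from additive effects called 15 in HCT116. By the same error the departure in U2OS also called 15, which stayed within 1.5 times the reported count. Of 3301 alternatives for single genes, 3198 kept the call, 57 gained it and 46 lost it. No paired analysis was possible because the tables hold no values per library, and for the same reason no replicate was left out, so what a single library contributes is not known. With 2 libraries a group, small changes may have been missed.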
